A study of Mus musculus with 8 samples.

Results

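The second replicate series of JUN TetON ESCs was compared with the first, as 4 libraries against 4, out of 8 libraries in all. JUN TetON ESCs are OG2 mouse embryonic stem cells (genotype c-Jun_TetOn_mESC) in which doxycycline switches on JUN, and every library of both series came from induced cells. The labels give the strain as 1/2 129SVJ, 3/8 C57B6 and 1/8 CBA, the passage as 12, and feeder-free culture in DMEM with 15% FBS, LIF and the inhibitors PD0325901 and Chir99021. Each series held 1 library of each treatment. These were DMSO (the solvent), PFI-3 (an inhibitor of the bromodomain of BRG1, also called SMARCA4), BI-9564 (an inhibitor of the bromodomains of BRD7 and BRD9) and both together (P+B), all with 2 μg/ml doxycycline and, per the labels, for 6 h. The legend of the study's supplement separates the time of JUN induction from a shorter time of compound, while the labels give a single time. Series 1 is replicate number 1 and series 2 is replicate number 2 of each treatment. The sources do not say what a replicate number marks, such as a culture, a day or a sequencing run, so these possibilities cannot be told apart, and p-values measure the spread between these libraries, which may be technical. In bulk samples a smaller share of expressing cells and less RNA per cell also cannot be told apart.

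Mouse ESCs held in LIF with inhibitors of MEK and GSK3 keep a naive state, in which factors such as NANOG, ESRRB, KLF2 and ZFP42 (REX1) act beside the core factors OCT4 (*Pou5f1*) and SOX2. Some of these genes, *Nanog*, *Zfp42* and *Dppa3* among them, are known to vary from cell to cell within a culture. A small and changing share of ESCs passes through a state that expresses genes of the two-cell embryo, of which the *Zscan4* cluster is the best known. JUN, a subunit of the AP-1 transcription factor, drives ESCs out of pluripotency when it is induced.

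Values are TPM, a measure per transcript length, which the authors made whole numbers. The libraries summed to between 991574 and 991897, and read depth is unknown because TPM keeps none. Differences are on the log2(TPM + 1) scale, series 2 minus series 1, from limma with treatment as a block, and each is given with its SE and its Benjamini-Hochberg adjusted p-value. A gene passed the test at an adjusted p under 0.05, and was called when it also differed by at least 1.5-fold. Of 50600 rows, 10222 had a mean of at least 5 and were tested. A gene with a mean under 5 in 1 series reached the filter only through the other series. The direction of such a gene was fixed by the filter, so its test is a description only. Values of 4 libraries are given in the order DMSO, PFI-3, BI-9564 and P+B.

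All 10 markers of ESCs were tested and summed to 4621 to 5485 TPM in series 1 and 3555 to 4460 in series 2. None of the 10 fibroblast, 10 primitive endoderm or 6 mesoderm markers reached the filter. Their summed levels were 3 to 5, 4 to 6 and 0 to 4 TPM in series 1, and 1 to 4, 3 to 10 and 1 to 4 TPM in series 2. Of the 6 neural ectoderm markers 2 were tested, with sums of 22 to 34 and 26 to 36 TPM, and of the 8 trophoblast markers 3 were tested, with sums of 26 to 34 and 22 to 35 TPM. By limma 0 of these 5 neural ectoderm and trophoblast markers passed, and 0 were at an unadjusted p under 0.05. The Y-linked genes *Ddx3y*, *Eif2s3y* and *Uty* were present in all libraries and did not pass either. *Ddx3y* was at 26 to 34 TPM in series 1 and 26 to 35 TPM in series 2.

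Series 2 differed from series 1 in 385 genes that passed the test, 161 higher (1.58% of genes tested) and 224 lower (2.19%). Of these, 57 were called higher (0.558%) and 78 lower (0.763%). *Zscan4c*, *Zscan4d*, *Zscan4e* and *Zscan4f* led the rises among genes with a known role, and *Dppa3*, *Fabp3* and *S100a6* were among the falls. All 135 called genes moved the same way in all 4 treatments. With the 2 libraries of any treatment left out 33 to 51 genes were called, 32 to 49 of them among the 135, and without the treatment term 36 were. Of 70 named genes that passed, 15 passed with each treatment left out in turn, namely *Zscan4c*, *Zscan4e*, *Zscan4f*, *Jun*, *Fstl1*, *Stmn2*, *Dppa3*, *Dppa5a*, *Fabp3*, *S100a6*, *H19*, *Peg10*, *Ifitm1*, *Krt42* and *Sprr2a2*, and the other 55 did not pass in every such fit. A gene that moved the same way in all 4 treatments has to keep its direction when a treatment is left out, so its direction there adds nothing. Of the 15, *Zscan4c* and *Zscan4e* reached the filter only through series 2 and *Sprr2a2* only through series 1, so these are a description only. Over all tested genes 11.1% were higher and 12.8% lower in every treatment, and the median difference was −0.01 with an SD of 0.27. In 3.06% of tested genes all series 2 libraries lay above all series 1 libraries, and in 3.04% all lay below. Of the called genes, 39 of those higher and 67 of those lower are protein coding, and 5 and 2 are lincRNAs.

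**Figure D1:**
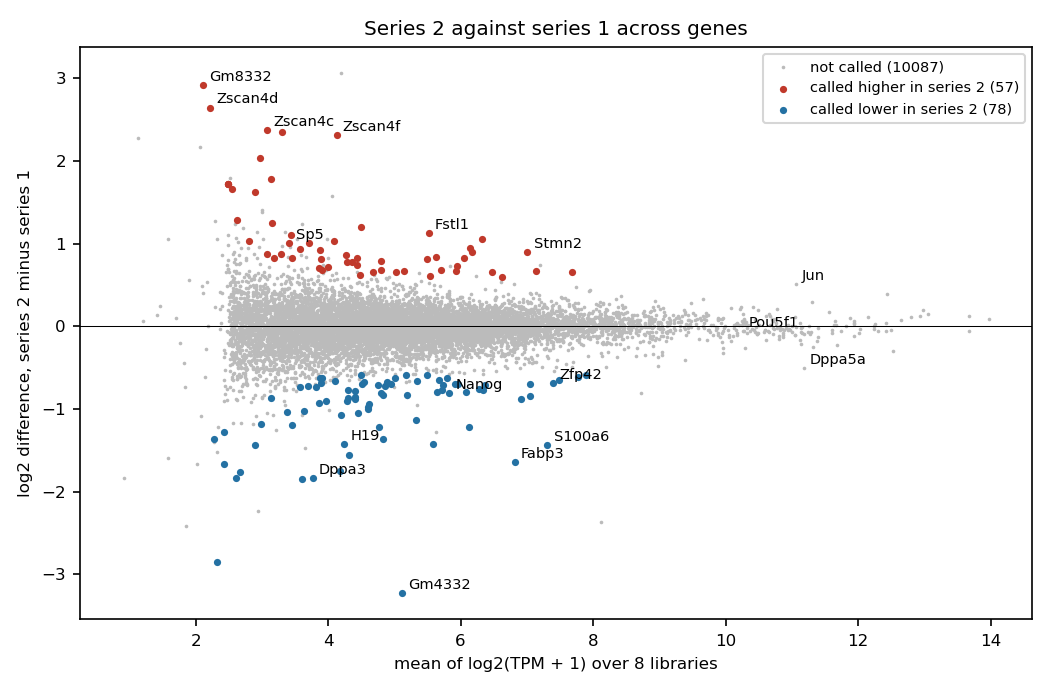
Log2 difference of each tested gene (series 2 minus series 1) against its mean log2(TPM + 1) over 8 libraries, with 57 genes called higher in red and 78 called lower in blue. *Zscan4* genes stand at the top at low mean levels, *Fabp3* and *S100a6* lie well below 0 at higher levels, and *Pou5f1* lies close to 0.

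The first principal component (31.5% of the variance) ordered the libraries by treatment, and the second (18.5%) split the series. On the second component series 1 lay between 9.51 and 18.1 and series 2 between −17.3 and −7.80. The difference between same-treatment libraries was correlated between treatments across genes, with Pearson's r from 0.143 to 0.236, which is a description over genes measured in the same 8 libraries. Whether the series difference itself depended on the compounds was tested with an interaction term, which was added after the data were seen. By limma 0 of 10222 genes passed for PFI-3 and 0 for BI-9564, with 524 and 481 genes at an unadjusted p under 0.05 (5.13% and 4.71%). The lowest adjusted p-values were 0.891 and 0.762. With 8 libraries this fit left very few residual degrees of freedom, so these counts cannot decide the question. Mitochondrially encoded genes took 7.43% to 8.54% of TPM in series 1 and 8.34% to 9.41% in series 2, and cytosolic ribosomal protein genes 13.9% to 14.4% and 13.4% to 13.9%. Their part in the results was not tested.

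*Jun* was higher in series 2 in every treatment. It was at 1970, 1570, 2071 and 1569 TPM in series 1 and at 2877, 2227, 3011 and 2159 TPM in series 2, so that the lowest library of series 2 stood above the highest of series 1. The difference was 0.51 ± 0.03 (SE, adjusted p = 0.00038), or 1.43-fold, which passed the test and fell short of the fold threshold. It lay between 0.46 and 0.55 in the 4 treatments. In an exact two-sided permutation test that swaps the series within treatments, 2 of 16 arrangements gave a difference at least as large, which is the smallest share that 4 treatments allow and cannot reach 0.05. The value adds up the endogenous gene and any transgene reads that match it, and *Junos* overlaps *Jun* on the other strand (chr4:95049034-95052222, GRCm38), while the sources do not state whether counting used strand.

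Among the other AP-1 genes only *Jund* passed. Of 19 genes of the JUN and AP-1 family 12 were tested, of which *Jun* rose, *Jund* fell and 10 did not pass, and the median difference was 0.045 against −0.01 over all tested genes. *Jund*, a broadly expressed partner in AP-1, was at 367, 320, 290 and 251 TPM in series 1 and 310, 276, 253 and 219 TPM in series 2 (−0.21 ± 0.04, adjusted p = 0.027). *Fosl1*, which encodes the AP-1 subunit FRA1, was at 47, 29, 28 and 12 TPM in series 1 and 67, 35, 43 and 9 TPM in series 2, which overlap (0.25 ± 0.16, adjusted p = 0.45). *Junb* differed by 0.00 and *Fosl2* by −0.07 (adjusted p = 1.00 and 0.80), and *Fos*, *Fosb*, *Batf*, *Batf2* and *Batf3* were at 2 TPM or less in every library. *Atf3*, a stress-induced member, was at 29, 17, 29 and 10 TPM in series 1 and 32, 20, 34 and 13 TPM in series 2 (0.23 ± 0.10, adjusted p = 0.23). Of 6 JUN targets that the study names, only *Fosl1*, *Fosl2* and *Anxa1* were tested and 0 passed by limma (1 at an unadjusted p under 0.05). That list was chosen by the study, partly on these cells. *Anxa1*, an annexin, was at 63, 39, 45 and 21 TPM in series 1 and 52, 26, 40 and 12 TPM in series 2 (−0.44 ± 0.11, adjusted p = 0.083). *Runx1*, *Pxdc1* and *Tgfbi* did not reach the filter, and *Tgfbi* was at 3, 1, 1 and 0 TPM in series 1 and at 7, 3, 2 and 1 TPM in series 2.

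*Zscan4c*, *Zscan4d*, *Zscan4e* and *Zscan4f* of the two-cell-like state rose in series 2. *Zscan4-ps2*, also tested, rose less evenly, with P+B libraries at 3 and 4 TPM. *Zscan4* genes encode SCAN-domain zinc finger proteins tied to telomere maintenance and lie in a cluster of near-identical copies on chromosome 7. Because the copies share sequence, RSEM has to divide shared reads among them and the level of any single copy is uncertain. To show how alike the copies are, the 110 bases around the TATA box upstream of the RefSeq start are given for the 3 tested copies with a promoter entry (RefSeq, GRCm38.p6, each on the gene's own strand, 5′ to 3′, with TATAAAA in capitals):
Zscan4c, chr7:11005601-11005710, plus strand: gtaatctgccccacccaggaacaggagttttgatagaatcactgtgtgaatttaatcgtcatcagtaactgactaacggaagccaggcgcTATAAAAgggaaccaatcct
Zscan4d, chr7:11166194-11166303, minus strand: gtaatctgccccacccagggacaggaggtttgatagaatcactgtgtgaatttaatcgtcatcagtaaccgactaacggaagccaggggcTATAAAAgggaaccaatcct
Zscan4f, chr7:11397794-11397903, plus strand: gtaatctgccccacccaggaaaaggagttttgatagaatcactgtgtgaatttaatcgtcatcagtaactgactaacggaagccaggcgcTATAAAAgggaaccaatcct
The windows of *Zscan4c* and *Zscan4f* were identical at 109 of 110 positions, those of *Zscan4c* and *Zscan4d* at 106, and those of *Zscan4d* and *Zscan4f* at 105. TATAAAA was searched on both strands in the 250 bases before each start, and 4.98% of all 32851 promoters (27025 genes) and 2.02% of the promoters of tested genes held it. So did 4 of 46 promoters of genes called higher (8.70%) and 6 of 73 of genes called lower (8.22%). The 4 were those of *Plekha4* and of the 3 near-identical *Zscan4* copies shown, so they are not independent. A match is a description and not a binding site.

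*Zscan4f* was at 6, 8, 5 and 9 TPM in series 1 and 41, 31, 41 and 40 TPM in series 2 (2.31 ± 0.18, adjusted p = 0.0014), or 4.97-fold. *Zscan4c* was at 3, 3, 3 and 2 TPM in series 1 and 23, 19, 15 and 17 TPM in series 2 (2.37 ± 0.18, adjusted p = 0.0014). In both genes every series 2 library stood above every series 1 library. *Zscan4e* was at 4, 2, 3 and 5 TPM in series 1 and 24, 21, 17 and 24 TPM in series 2 (2.36 ± 0.18, adjusted p = 0.0014). *Zscan4d* was at 1, 2, 0 and 1 TPM in series 1 and 9, 10, 13 and 11 TPM in series 2 (2.65 ± 0.35, adjusted p = 0.0093). *Zscan4-ps2*, a pseudogene by its name and protein coding in GENCODE M21, was at 3, 4, 3 and 3 TPM in series 1 and 16, 17, 18 and 4 TPM in series 2, so that the series meet at 4 TPM (1.63 ± 0.33, adjusted p = 0.041). *Zscan4c*, *Zscan4e*, *Zscan4d* and *Zscan4-ps2* had means of 2.75, 3.5, 1.0 and 3.25 TPM in series 1. They reached the filter only through series 2 and had to be higher there, so their p-values and separation are a description only. Added up over all rows named *Zscan4*, the level was 19, 27, 18 and 26 TPM in series 1 and 136, 115, 133 and 111 TPM in series 2, which depends less on how reads were divided. The gap between the series was thus much wider than the spread among treatments within either series.

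The deposited values covered 53 two-cell-like genes. Of these, 9 were tested, 7 called higher and 0 lower, beside 0.558% and 0.763% of all tested genes. Apart from *Zscan4f* and *Eif1a*, the tested members had a mean under 5 in series 1. They reached the filter only through series 2, so they had to be higher there. Their p-values, and the count and the median of these 9 (1.80), are given as a description only. Over the 35 members that could be fitted without a filter the median difference was 1.31. Besides the *Zscan4* members, *Gm4027* was at 1, 3, 2 and 4 TPM in series 1 and 7, 8, 10 and 14 TPM in series 2 (1.66 ± 0.23, adjusted p = 0.012). *Gm20765* was at 2, 2, 1 and 4 TPM in series 1 and 9, 7, 8 and 14 TPM in series 2 (1.73 ± 0.23, adjusted p = 0.0093). *Gm21304* and *Gm21312*, which were not on the list, had the same value as *Gm20765* in every library. The 300 promoter bases of *Gm20765* and *Gm21304* were identical and those of *Gm21312* differed from both at 1 position, so the 3 rows are not independent measurements. *Gm4340* overlapped between the series (1.80 ± 0.66, adjusted p = 0.19), and *Eif1a*, a translation initiation factor, was at 66 to 101 TPM in series 1 and 58 to 86 TPM in series 2 (−0.15 ± 0.07, adjusted p = 0.31).

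The other 44 two-cell-like genes were under the filter, at 14 TPM or less in every library. Of these, 18 were at 0 in all libraries, 23 had the higher sum in series 2, 1 had the higher sum in series 1 and 2 had equal sums. The same counts were not taken over all rows under the filter. The *Zscan4* copies among these genes share sequence, so they are not independent measurements and the counts are a description only. *Gm6763* was at 1, 2, 1 and 0 TPM in series 1 and 6, 7, 7 and 9 TPM in series 2, and *Zscan4a* at 1, 2, 1 and 4 TPM in series 1 and 9, 4, 9 and 8 TPM in series 2. *Tcstv1*, another gene of the two-cell embryo, was at 0 in all 4 series 1 libraries and at 1, 0, 5 and 5 TPM in series 2. Defining genes of the state were nevertheless at 0 in all libraries, among them *Duxf3* (of the DUX family, which starts this programme), *Zfp352*, *Ubtfl1* and *Tdpoz1* to *Tdpoz4*.

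**Figure D2:**
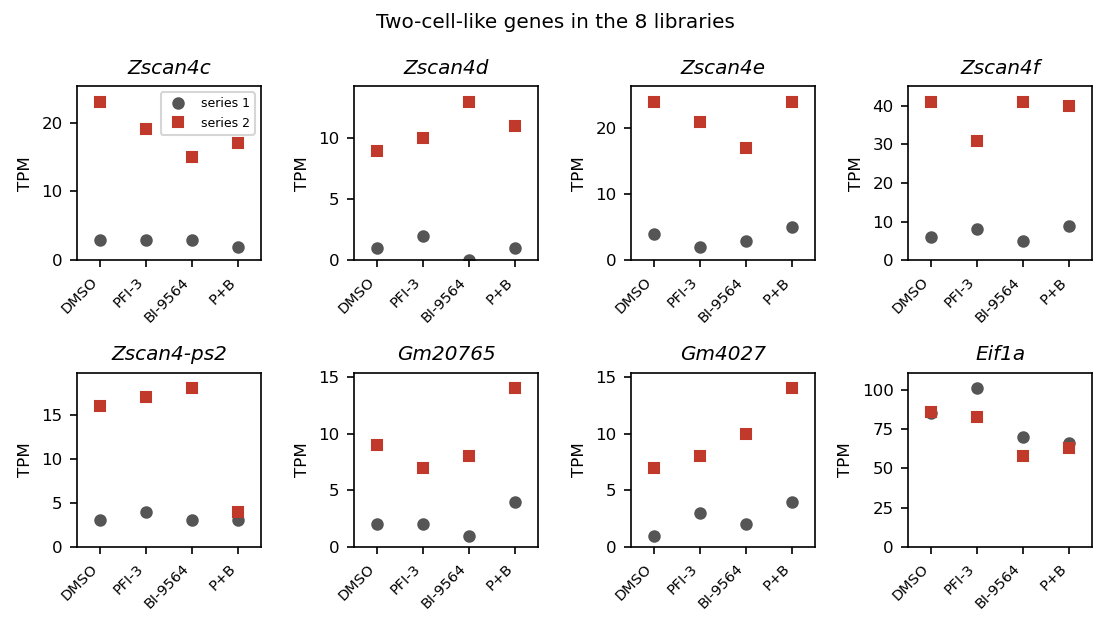
TPM of 8 two-cell-like genes in each of the 8 libraries, by treatment, with series 1 as grey circles and series 2 as red squares on axes that start at 0. In *Zscan4c*, *Zscan4d*, *Zscan4e*, *Zscan4f*, *Gm20765* and *Gm4027* all series 2 libraries lie above all series 1 libraries, in *Zscan4-ps2* the P+B libraries are at 3 and 4 TPM, and in *Eif1a* the series overlap.

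The naive pluripotency genes *Dppa3*, *Nanog*, *Zfp42*, *Esrrb*, *Klf2* and *Klf5* fell in series 2. Of 18 naive genes 16 were tested, of which 6 fell (beside 2.19% of all tested genes) and 0 rose, with *Dppa3*, *Nanog* and *Zfp42* past the fold threshold. The median difference was −0.41 against −0.01 over all tested genes. It was −0.54 in the DMSO libraries, −0.21 under PFI-3, −0.39 under BI-9564 and −0.43 under P+B, and 12 of 16 genes were lower in all 4 treatments, beside 12.8% of all tested genes.

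*Nanog*, a factor that stabilizes self-renewal, was at 71, 106, 59 and 68 TPM in series 1 and 40, 57, 29 and 46 TPM in series 2 (−0.81 ± 0.09, adjusted p = 0.0043). The highest library of series 2 stood below the lowest of series 1. The adjusted p was 0.063 without the PFI-3 libraries and 0.051 without the BI-9564 libraries. *Dppa3* (STELLA), a maternal factor that guards against demethylation in the zygote, was at 22, 30, 26 and 22 TPM in series 1 and 5, 7, 6 and 7 TPM in series 2 (−1.84 ± 0.14, adjusted p = 0.0014), or 3.58-fold lower. These libraries did not overlap either. *Zfp42*, a common marker of the naive state, was at 227, 257, 189 and 186 TPM in series 1 and 132, 189, 100 and 120 TPM in series 2 (−0.69 ± 0.08, adjusted p = 0.0053). Here the PFI-3 library of series 2 reached into the range of series 1.

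Smaller falls passed the test in *Esrrb* (−0.44 ± 0.07, adjusted p = 0.019), *Klf2* (−0.44 ± 0.09, adjusted p = 0.041) and *Klf5* (−0.29 ± 0.05, adjusted p = 0.022), which encode factors of the naive network. *Esrrb* was at 86, 128, 76 and 141 TPM in series 1 and 58, 110, 54 and 100 TPM in series 2. In both series it was lower with DMSO and BI-9564 than with PFI-3 and P+B. *Nr5a2*, a nuclear receptor, was at 8, 12, 8 and 8 TPM in series 1 and 4, 6, 3 and 5 TPM in series 2, with no overlap and an adjusted p of 0.052. Its mean was 4.5 TPM in series 2, so it reached the filter only through series 1. *Tfcp2l1*, *Klf4*, *Tet2* and *Fgf4* were lower in all 4 treatments without passing (−0.34 to −0.51, adjusted p from 0.051 to 0.11). *Trim28* and *Tcl1* differed by 0.06 each (adjusted p = 0.37 and 0.85).

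Of 20 core pluripotency genes, all tested, *Dppa5a* fell, *Lin28a* rose, 0 were called by limma (10 were at an unadjusted p under 0.05) and 18 did not pass, with a median difference of −0.12. Among all tested genes 2.19% fell and 1.58% rose. *Pou5f1* was at 1273, 1333, 1167 and 1211 TPM in series 1 and 1281, 1299, 1104 and 1124 TPM in series 2 (−0.05 ± 0.03, adjusted p = 0.39). *Sox2* was at 107, 111, 93 and 89 TPM in series 1 and 93, 100, 66 and 75 TPM in series 2 (−0.27 ± 0.07, adjusted p = 0.085). *Dppa5a*, which encodes an RNA-binding protein abundant in ESCs, was at 2925, 2930, 2607 and 2588 TPM in series 1 and 1925, 2146, 1835 and 1887 TPM in series 2, with no overlap (−0.50 ± 0.03, adjusted p = 0.0011). *Lin28a*, an RNA-binding protein that blocks maturation of let-7, was at 47, 58, 40 and 48 TPM in series 1 and 64, 74, 52 and 71 TPM in series 2 (0.43 ± 0.07, adjusted p = 0.019). *Cdh1*, which encodes E-cadherin, differed by less than 0.01 (adjusted p = 0.99).

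**Figure D3:**
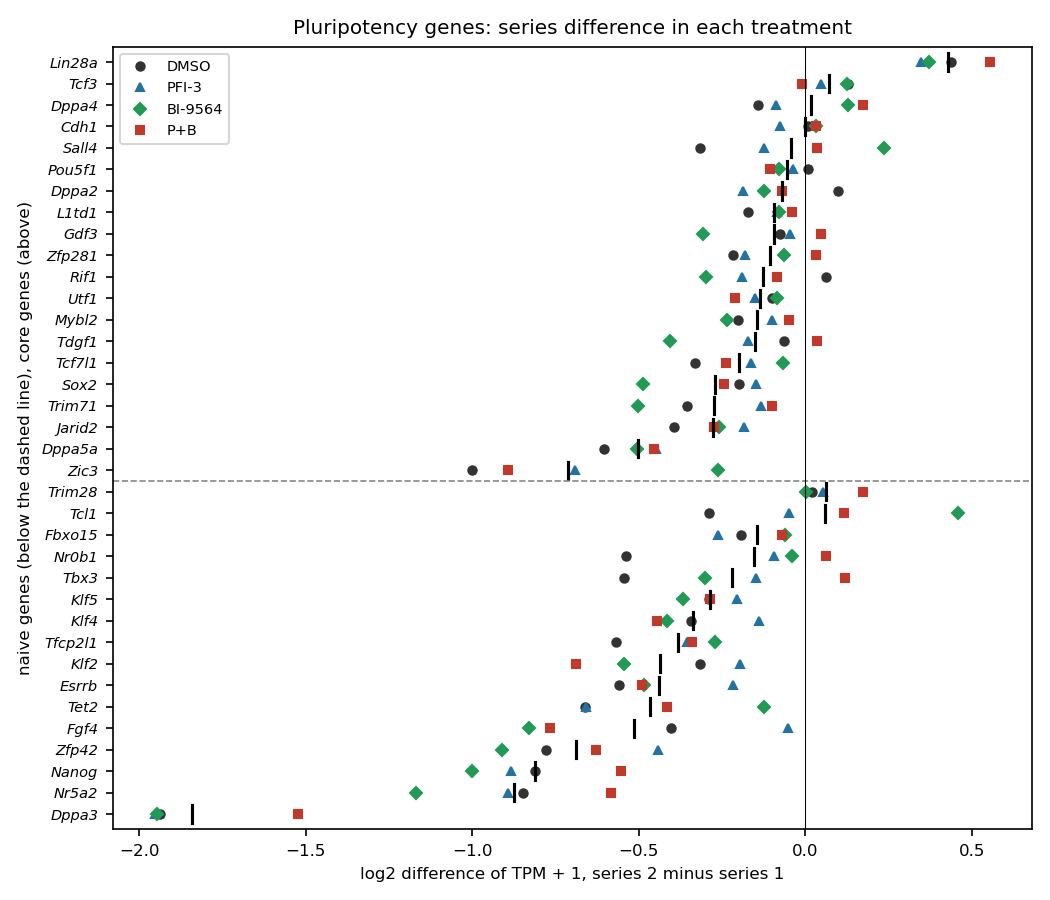
Series difference (log2 of TPM + 1, series 2 minus series 1) of 16 naive and 20 core pluripotency genes in each treatment (symbols), with the fitted difference as a black bar. *Dppa3*, *Nr5a2*, *Nanog* and *Zfp42* lie left of 0 in all treatments, while *Pou5f1* and *Cdh1* lie close to 0 and *Lin28a* lies right of it.

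Of the formative and primed genes *Lefty2* and *Etv5* were lower in series 2. Of 22 listed genes 10 were tested, of which 2 fell (beside 2.19% of all tested genes) and 0 rose, with a median difference of 0.10. *Lefty2*, an inhibitor of NODAL signalling, was at 23, 20, 13 and 10 TPM in series 1 and 8, 12, 5 and 3 TPM in series 2 (−1.20 ± 0.17, adjusted p = 0.013). *Nodal* itself, the ligand, was at 15, 16, 19 and 19 TPM in series 1 and 7, 11, 7 and 17 TPM in series 2 (−0.74 ± 0.20, adjusted p = 0.093). *Etv5*, an ETS factor that responds to ERK, fell by 0.37 (SE 0.05, adjusted p = 0.0093), whereas its relative *Etv4* was at 64 to 79 TPM in series 1 and 78 to 99 TPM in series 2 (0.27 ± 0.06, adjusted p = 0.056). *Dnmt3b*, a DNA methyltransferase, differed by −0.05 (adjusted p = 0.63), and *Pou3f1* by 0.58 ± 0.29 (adjusted p = 0.31). *Fgf5* and *Cer1*, which mark primed cells, were at 0 in all libraries, and *Otx2* was at 2 TPM or less.

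Some targets of Wnt and β-catenin signalling, which Chir99021 activates by blocking GSK3, were higher in series 2. Of 17 listed genes 7 were tested, of which 3 rose (beside 1.58% of all tested genes) and 0 fell, with a median difference of 0.34. *Sp5*, a direct Wnt target, was at 3, 6, 4 and 22 TPM in series 1 and 8, 13, 10 and 37 TPM in series 2 (1.01 ± 0.15, adjusted p = 0.015). The P+B library was the highest in both series, so the series overlap although series 2 was higher in each treatment. *Cdx1*, a homeobox gene, was at 14, 18, 10 and 24 TPM in series 1 and 19, 30, 20 and 46 TPM in series 2 (0.74 ± 0.12, adjusted p = 0.019). *Axin2*, the pathway's feedback inhibitor, was at 17, 25, 30 and 42 TPM in series 1 and 26, 43, 37 and 57 TPM in series 2 (0.52 ± 0.10, adjusted p = 0.035). For the other signals of the medium, 0 of 12 tested ERK feedback genes passed by limma (0 at an unadjusted p under 0.05, median −0.10). *Etv5* and *Etv4* were counted in the formative list instead, where *Etv5* fell and *Etv4* did not pass. Of 14 LIF and STAT3 genes *Ly6a* alone passed (median −0.11). *Ly6a* (SCA-1), a surface protein, was at 43, 23, 24 and 10 TPM in series 1 and 11, 8, 7 and 1 TPM in series 2 (−1.85 ± 0.19, adjusted p = 0.0041).

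Some germline genes that DNA methylation silences in somatic cells fell in series 2. Of 32 listed genes 16 were tested, of which 5 fell and 1 rose, beside 2.19% and 1.58% of all tested genes. The median difference was −0.38, and 10 were lower in all 4 treatments, beside 12.8% of all tested genes. *Dazl*, an RNA-binding protein of germ cells, was at 31, 29, 46 and 40 TPM in series 1 and 19, 17, 23 and 22 TPM in series 2 (−0.80 ± 0.09, adjusted p = 0.0057). *Ddx4* (VASA), a germ cell helicase, was at 16, 16, 18 and 17 TPM in series 1 and 7, 5, 11 and 9 TPM in series 2 (−1.03 ± 0.17, adjusted p = 0.020). *Taf7l*, a germ cell form of a TFIID subunit, went from 6 to 9 TPM down to 1 to 5 TPM (−1.28 ± 0.26, adjusted p = 0.041). The series did not overlap in any of these 3 genes. *Taf7l* had a mean of 2.75 TPM in series 2 and reached the filter only through series 1, so its fall was fixed by the filter. The remaining genes that passed were *Fkbp6* and *Tuba3a*, which fell by 0.55 and 0.53 (adjusted p = 0.041 and 0.0079), and *Rpl10l*, which rose by 0.31 (adjusted p = 0.019). *Fkbp6*, *Tuba3a* and the genes given below by a single difference only were named after their values were seen, to complete the counts of their lists. By limma 0 of 10 DNA methylation enzymes passed (3 at an unadjusted p under 0.05), with a median of 0.06.

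Imprinted genes moved in both directions. Of 42 listed genes 25 were tested, of which 4 rose and 2 fell, beside 1.58% and 2.19% of all tested genes. *H19*, a maternally expressed lncRNA, was at 45, 29, 31 and 20 TPM in series 1 and 13, 12, 10 and 8 TPM in series 2 (−1.42 ± 0.13, adjusted p = 0.0026). *Peg10*, a paternally expressed gene derived from a retrotransposon, was at 93, 89, 69 and 65 TPM in series 1 and 55, 55, 46 and 37 TPM in series 2 (−0.70 ± 0.07, adjusted p = 0.0032). The maternal lncRNAs *Meg3* and *Rian*, named after their values were seen, rose together. *Meg3* was at 195, 197, 172 and 159 TPM in series 1 and 277, 242, 253 and 236 TPM in series 2 (0.48 ± 0.06, adjusted p = 0.0061), and *Rian* rose by 0.44 ± 0.06 (adjusted p = 0.0093). *Mest* and *Plagl1* rose by 0.31 and 0.26 (adjusted p = 0.018 and 0.026). Neither *H19*, *Peg10*, *Meg3* nor *Rian* overlapped between the series.

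Among the genes with the largest differences, *Fabp3* and *Sprr2a2* fell without overlap. *Fabp3*, a fatty acid binding protein, was at 190, 212, 177 and 216 TPM in series 1 and 53, 78, 55 and 68 TPM in series 2 (−1.64 ± 0.07, adjusted p = 0.00013), or 3.12-fold lower. *Sprr2a2*, a cornified envelope protein of epithelia, was at 11, 11, 18 and 11 TPM in series 1 and 0, 1, 2 and 1 TPM in series 2 (−2.85 ± 0.27, adjusted p = 0.0032). *Gm4332* had the largest fall, from 114, 159, 91 and 73 TPM to 14, 26, 39 and 0 TPM, with a wide SE (−3.23 ± 0.67, adjusted p = 0.045). The keratin gene *Krt42* was at 45, 36, 24 and 28 TPM in series 1 and 14, 12, 6 and 6 TPM in series 2 (−1.75 ± 0.13, adjusted p = 0.0014). *Krt16*, a keratin of stratified epithelia, was at 33, 13, 9 and 3 TPM in series 1 and 11, 3, 2 and 0 TPM in series 2 (−1.76 ± 0.20, adjusted p = 0.0057). *Cryab*, a small heat shock protein, *Gpnmb*, a membrane glycoprotein, and *Gm11800* completed the 10 largest falls (−1.56, −1.66 and −1.83, adjusted p = 0.012, 0.025 and 0.039). Among the largest rises, *Gm8332* was at 0, 0, 0 and 5 TPM in series 1 and 5, 6, 17 and 25 TPM in series 2 (2.92 ± 0.37, adjusted p = 0.0083). *Gm5989* and *Gm15280* rose by 1.78 and 2.03 (adjusted p = 0.0063 and 0.0497). *Sprr2a2*, *Krt16*, *Gpnmb* and *Gm11800* had a mean under 5 in series 2, and *Gm8332*, *Gm5989* and *Gm15280* in series 1. They reached the filter only through the other series, so their direction was fixed and their tests are a description only.

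The genes *S100a6*, *Stmn2*, *Fstl1* and *Anxa2* were named after their values were seen, because they combined a high level with a call. *S100a6*, a calcium-binding protein, was at 387, 315, 252 and 148 TPM in series 1 and 151, 108, 99 and 51 TPM in series 2 (−1.44 ± 0.06, adjusted p = 0.00011). It fell from DMSO to P+B within each series, and series 2 was lower at every treatment, with the DMSO library of series 2 just above the P+B library of series 1. *Anxa2*, an annexin that binds S100 proteins, was at 118, 88, 94 and 63 TPM in series 1 and 90, 52, 51 and 27 TPM in series 2 (−0.80 ± 0.12, adjusted p = 0.015). *Stmn2*, which encodes a regulator of microtubules, rose from 91 to 95 TPM in series 1 to 160 to 194 TPM in series 2 (0.90 ± 0.06, adjusted p = 0.0012). *Fstl1*, a secreted glycoprotein, was at 41, 31, 29 and 22 TPM in series 1 and 81, 70, 59 and 59 TPM in series 2 (1.12 ± 0.09, adjusted p = 0.0015).

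**Figure D4:**
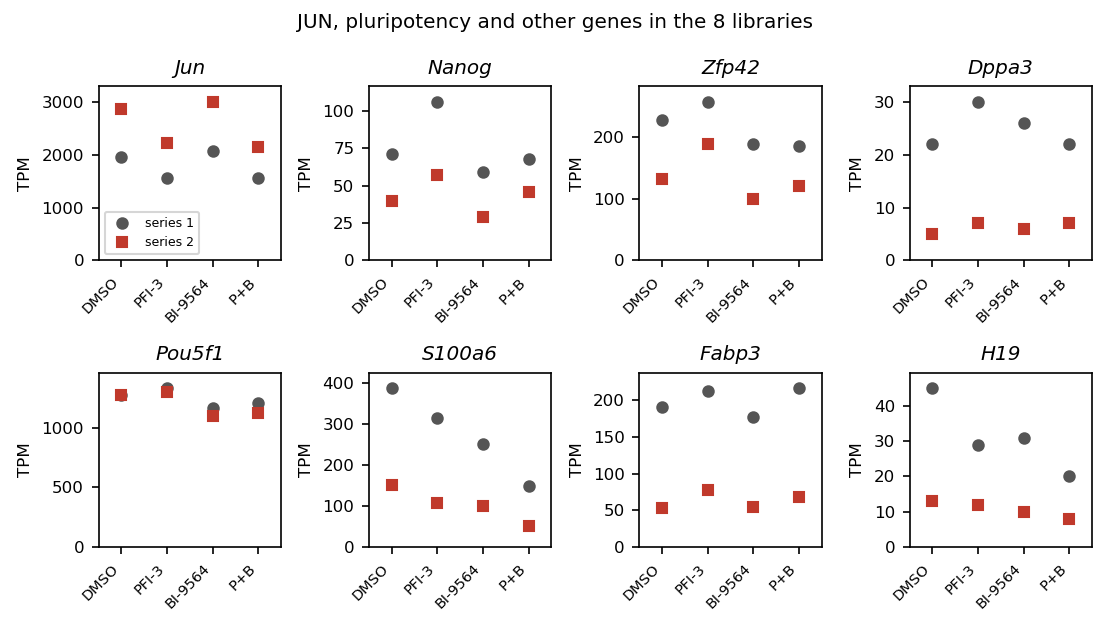
TPM of *Jun*, *Nanog*, *Zfp42*, *Dppa3*, *Pou5f1*, *S100a6*, *Fabp3* and *H19* in each of the 8 libraries, by treatment, with series 1 as grey circles and series 2 as red squares on axes that start at 0. Series 2 is higher for *Jun* and lower for *Nanog*, *Zfp42*, *Dppa3*, *S100a6*, *Fabp3* and *H19* in every treatment, while the series nearly coincide for *Pou5f1*.

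The AP-1 motif TGACTCA was searched on both strands in the 250 bases before each RefSeq start, since *Jun* differed between the series. It was held by 4 of 46 promoters of genes called higher (32 genes matched) and 5 of 73 promoters of genes called lower (56 genes matched), beside 2.98% of the promoters of tested genes and 4.46% of all promoters. The matches among genes called higher were in *1110002J07Rik*, *Plekha4* and *Upp1*, so some fell in promoters of the same gene. *Anxa2* was among the lower genes with a match. A match is a description only.

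Of the stress and growth lists, immediate early genes held a called gene. Beside the counts below, 1.58% of all tested genes rose and 2.19% fell. Of 17 immediate early genes, which respond first to serum and stress, 12 were tested and 3 fell. *Ctgf* (CCN2), a target of YAP, was at 108, 87, 110 and 97 TPM in series 1 and 71, 61, 53 and 52 TPM in series 2 (−0.76 ± 0.10, adjusted p = 0.0080), and *Cyr61* (CCN1) and *Arc* fell by 0.49 and 0.54 (adjusted p = 0.019 each). Of 13 tested p53 response genes 2 fell, *Mdm2* (−0.44 ± 0.07, adjusted p = 0.022), the ligase that degrades p53, and *Trp53inp1* (−0.54 ± 0.09, adjusted p = 0.021). Of 19 tested genes of the amino acid stress response 3 rose, *Phgdh*, the first enzyme of serine synthesis (0.54 ± 0.06, adjusted p = 0.0061), and *Atf5* (0.49 ± 0.09, adjusted p = 0.025) among them, with *Psat1* of the same pathway at 0.28 (adjusted p = 0.014), while *Cth*, which makes cysteine, fell by 0.57 (SE 0.07, adjusted p = 0.0057). Of 16 DNA replication genes 2 rose, beside 1.58% of all tested genes, and 11 were higher in all 4 treatments, beside 11.1%, with a median of 0.13. *Ccne1* (cyclin E) was at 143, 127, 119 and 127 TPM in series 1 and 175, 175, 154 and 148 TPM in series 2 (0.33 ± 0.06, adjusted p = 0.021), and the helicase subunit gene *Mcm5* rose by 0.20 (adjusted p = 0.023). By limma 0 of 15 mitosis genes passed (1 at an unadjusted p under 0.05, median 0.02).

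The share of genes that passed differed among the remaining lists. Among all tested genes, for comparison, 1.58% rose and 2.19% fell. Of 6 tested interferon response genes *Ifitm1* and *Ifitm3*, membrane proteins that restrict viruses and mark early germ cells, fell by 0.88 and 0.49 (adjusted p = 0.0028 and 0.012). Of 10 tested epithelial genes 4 fell and 1 rose, with *Krt8* at 163, 101, 97 and 53 TPM in series 1 and 114, 81, 69 and 30 TPM in series 2 (−0.53 ± 0.08, adjusted p = 0.019). *Krt42*, described above, *Krt18* (−0.40, adjusted p = 0.044) and *Cldn4* (−0.44, adjusted p = 0.0065) were the other falls, and the rise was in *Vim*, which encodes vimentin (0.25, adjusted p = 0.022). Of 25 tested matrix and adhesion genes 2 fell, *Spp1* (osteopontin, −0.36 ± 0.04, adjusted p = 0.0057) and *Sparc* (−0.34, adjusted p = 0.0057), and 1 rose, the integrin gene *Itga5* (0.37 ± 0.07, adjusted p = 0.034). Of 22 tested hypoxia and glycolysis genes 3 fell and 1 rose, and *Slc2a3*, a glucose transporter, differed by −0.43 ± 0.06 (adjusted p = 0.013). The others were the glycolytic gene *Tpi1* (−0.43, adjusted p = 0.012), the glucose transporter gene *Slc2a1* (−0.38, adjusted p = 0.023) and *Ldha* (0.18, adjusted p = 0.047). Of 13 tested heat shock genes *Hsp90aa1* and *Hspb1* fell (−0.24 and −0.26, adjusted p = 0.0073 and 0.026). Of 9 tested NRF2 and metallothionein genes *Hmox1* and *Mt1* fell (−0.48 and −0.27, adjusted p = 0.013 and 0.017). By limma 0 of 19 sterol synthesis genes and 0 of 13 endoplasmic reticulum stress genes passed (8 and 0 at an unadjusted p under 0.05), with medians of 0.13 and −0.03. Of 85 cytosolic ribosomal protein genes 6 fell and 2 rose, and the median difference was −0.05. In this list 63 of 85 genes were lower, 35 in all 4 treatments (beside 12.8% of all tested genes) and 18 without overlap (beside 3.04%), and 37 had an unadjusted p under 0.05. *Rps27l* had the largest fall, from 534, 586, 634 and 606 TPM to 439, 453, 548 and 457 TPM (−0.32 ± 0.04, adjusted p = 0.0093). The 2 that rose, *Rpl39l* (0.67 ± 0.11, adjusted p = 0.020) and *Rpl10l* (0.31 ± 0.05, adjusted p = 0.019), are paralogs best known from the testis, and reads shared with their parent genes make their levels uncertain. Of 15 tested mitochondrially encoded genes, all of which were higher in series 2 and 6 in all 4 treatments (beside 11.1%), 2 rose, *mt-Atp8* (0.20 ± 0.03, adjusted p = 0.0093) and *mt-Cytb* (0.13, adjusted p = 0.018), and of 8 tested histone genes 0 passed by limma (1 at an unadjusted p under 0.05).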

How the data were processed

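RNA-seq libraries were made by the study from poly(A)-selected RNA of JUN TetON ESCs. The submitters' processing notes name bcl2fastq, Bowtie2 2.2.5, RSEM 1.3.0 and mm10, and the annotation is not given in the sources used here. The authors deposited 1 table of 50600 names. The unit of the deposited values is a score, since the authors turned TPM from RSEM into whole numbers (whether decimals were rounded or dropped is not stated). The authors analysed their data with DESeq2, which needs counts and was not run here. Of the rows, 94 repeated a name and 33075 were at 0 in all libraries.

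Series 2 (replicate number 2 of DMSO, PFI-3, BI-9564 and P+B) was compared with series 1 (replicate number 1) on log2(TPM + 1), a pseudocount of 1, for genes with a mean of at least 5. limma 3.58.1 in R 4.3.3 was fitted with treatment as a block and a trend (3 residual and 4.55 prior degrees of freedom), p-values were two-sided and adjusted by Benjamini-Hochberg over 10222 genes, and the thresholds were an adjusted p under 0.05 and a fold of 1.5. Depth is unknown, so no counting error could be given. The procedure was tested on data simulated for these 10222 genes. It called 92 of 100 genes changed by 1 on the log2 scale, 100 of 100 changed by 2, and 4 of 10022 left as they were. With no gene changed it called 0, and 4.65% of genes had an unadjusted p under 0.05. The simulated noise was independent between genes and drawn from the fitted model, and the filter was not applied again. The simulation therefore does not cover errors shared between genes or the effect of the filter.

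Lists are described by counts and medians and were not tested. Named genes are all tested members of the AP-1, naive, core, formative and two-cell-like lists, the 10 largest rises and 10 largest falls among called genes moving the same way in all 4 treatments, and up to 3 genes with the largest difference and any called gene of each other list; exceptions are stated. The comparison and the lists were chosen with earlier results of these data known. Positions are from GENCODE M21 (GRCm38), in which 47521 names were found once, and promoters from RefSeq (GRCm38.p6).

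Alternatives were pseudocounts of 0.5 and 5, means of at least 1 and 20 and no filter, quantile normalization, median centring, no treatment term, no trend, robust eBayes, correction for GC and length (97.7% of tested genes had both), other thresholds and leaving out each treatment.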

Additional observations from a re-analysis of the deposited data

Results flagged for a closer look

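Of 190 named genes and lists examined, 5 had 1 treatment whose series difference stood far from the rest by Dixon's test on 4 values, which flags about 1 in 20 by chance. *Dppa3* differed by −1.52 with P+B and by −1.95 to −1.94 in the other treatments (series 2 minus series 1, log2) (a gap of 0.964 of the range). *Sprr2a2* differed by −3.58 with DMSO and −2.66 to −2.58 elsewhere (0.922). *Ccne2* differed by 0.06 with P+B and 0.42 to 0.47 elsewhere (0.866). *Sox11* differed by −0.36 with P+B and 0.32 to 0.46 elsewhere (0.833), at 5 to 10 TPM. The median of the sex chromosome genes, of which 3 were tested, was −0.30 with PFI-3 and 0.00 to 0.03 elsewhere (0.904).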

How the results depend on the processing

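All 135 called genes that an alternative tested kept their direction in it. Outside quantile normalization and the GC and length correction this was fixed in advance, because each gene moved the same way in all 4 treatments. The number called moved. It was 82 (28 higher) with a mean of at least 20, 41 (16 higher, 25 lower) without a filter, 65 (30 and 35) without a trend, 36 (20 and 16) without the treatment term, 385 (161 and 224) without the fold threshold, 48 (22 and 26) at a fold of at least 2 and 62 (26 and 36) at an adjusted p under 0.01. Leaving out a treatment's libraries gave 33 to 51 calls (11 to 16 higher, 19 to 35 lower), with fewer samples in the fit. *Jun* passed in all alternatives (differences of 0.50 to 0.54) but the one without the treatment term (0.51, adjusted p = 0.16). *Nanog* lost its call without PFI-3 (−0.79, adjusted p = 0.063), without BI-9564 (−0.75, 0.051) and without the treatment term (−0.81, 0.18). Of 70 named genes that passed, 15 passed with each treatment left out. None reversed, which was fixed in advance in the same way. The two-cell-like median was 2.26 and 1.09 with pseudocounts of 0.5 and 5, 1.66 and 1.08 at minimum means of 1 and 20, 1.31 without a filter, and 1.83 to 2.22 with a treatment left out. Several list medians close to 0 changed sign. With a mean of at least 1 and without a filter, the JUN and AP-1 family went to −0.00106 and −0.0632, the JUN targets to 0.30 in both, imprinted genes to −0.0348 and −0.0554 and amino acid stress genes to −0.028 in both. Sex chromosome genes went to 0.0748 with a mean of at least 1, heat shock genes to −0.00512 with quantile normalization and the JUN targets to 0.0466 without P+B. With a treatment left out the median ran from −0.158 to 0.0133 for LIF and STAT3, −0.0127 to 0.0317 for mitosis, −0.0721 to 0.0704 for heat shock, −0.0259 to 0.0599 for amino acid stress and −0.0874 to 0.25 for histone genes. The cause of these changes was not tested. The libraries were paired by treatment, which was the block of the reported fit. With the replicate number as the pair, no paired analysis was possible because that number is itself the comparison. Values of a few TPM were whole numbers, which limits the precision of the *Zscan4* and other low genes.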
